A study of Mus musculus with 12 samples.

Results

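The CC chemokines are small secreted proteins that direct the movement of leukocytes, and 10 of their genes (*Ccl2*, *Ccl3*, *Ccl4*, *Ccl5*, *Ccl6*, *Ccl7*, *Ccl9*, *Ccl12*, *Ccl22* and *Ccl24*) were followed here in mouse macrophages and liver. The genes were taken by symbol from a table of read counts that lists 55335 genes, and each of the 10 symbols stood in a single row. The study removed the thyrotropin (TSH) receptor gene *Tshr* from myeloid cells and asked what this does to macrophage inflammation and to insulin resistance. Bulk RNA was sequenced from 12 libraries, 6 of bone-marrow-derived macrophages (BMDMs) and 6 of livers, with n = 3 in each of 4 groups.

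The f/f groups (Tshrf/f) carry a loxP-flanked *Tshr* allele and no Cre, and the MKO groups (Tshrf/f,Lyz2-Cre) carry the same allele with Cre driven by the Lyz2 promoter, which is active in macrophages, monocytes and neutrophils. All mice were male littermates, with an age of 6 weeks in the labels, both for the marrow donors and at the start of the diet; the methods text has 6 to 8 weeks for the donors. The BMDMs of both genotypes were grown for 7 days with M-CSF at 10 ng/mL and were then given TSH at 1 ng/mL for 24 hours, so that no library without TSH was compared. The mice of both liver groups received a high-fat diet (HFD) for 9 weeks, fasted for 8 hours, and were killed 5 minutes after insulin at 1.5 U/kg. A whole liver consists mostly of hepatocytes, in which the Lyz2 promoter is not active.

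The libraries held 28962878–40954211 counts. *Tshr* itself had 0, 0 and 2 counts in f/f BMDMs, 0, 0 and 5 in MKO BMDMs, and 0 in the 6 livers, so the counts were too low to check the deletion. The hepatocyte markers *Alb*, *Ttr*, *Cyp2e1* and *Tat* were at 0 in all 6 BMDM libraries, and the Kupffer cell marker *Clec4f* was also at 0 there. The macrophage markers (8 genes) summed to 15164–17914 CPM, which are counts scaled to the size of the library, in f/f BMDMs and to 20167–29712 CPM in MKO BMDMs. *Lyz2* was the most abundant of the 8, and the sums do not speak for every gene. Between the genotypes 4 of the 8 were lower and 4 higher in MKO cells, and the median of the list was −0.11 on the log2 scale. The Kupffer cell markers as a list (5 genes) did have reads in BMDMs. They summed to 229–505 CPM in f/f and to 64.8–373 CPM in MKO libraries, so *Clec4f* did not stand for that list. One library stood apart in scaling: the normalisation factor of f/f BMDM replicate 3 was 0.738, against 0.993–1.114 in the other BMDMs. Values without it are given beside the results that rest on it for the members, and for the NF-κB genes as a list. For the livers, a list in the study's own material places the same libraries under the opposite genotype headings; the deposited labels are followed here, and the direction of every liver comparison depends on them.

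A CC chemokine binds a seven-transmembrane receptor on the target cell and sets up a gradient along which the cell crawls. CCL2, CCL7 and CCL12 act through CCR2 and call monocytes out of the marrow and into tissue. CCL3 and CCL5 bind CCR1 among other receptors, CCL4 is a close relative of CCL3, and all of them are typical products of macrophages activated through NF-κB. CCL6 and CCL9 are ligands of CCR1 found in rodents and are made by resting myeloid cells. CCL22 attracts CCR4-bearing T cells, and CCL24 attracts eosinophils through CCR3; both are known from alternatively activated macrophages. In the liver of obese animals, chemokines from Kupffer cells and hepatocytes are known to recruit monocytes.

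The name of the family refers to a pair of neighbouring cysteines near the start of the secreted protein, and the coding sequence around that pair is shown for 9 of the genes because it is the feature that the 10 genes share. Each line gives 30 coding bases, 5′ to 3′, from the GENCODE M21 annotation of GRCm38, with both cysteine codons in capitals.

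*Ccl2*: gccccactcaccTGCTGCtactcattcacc
*Ccl7*: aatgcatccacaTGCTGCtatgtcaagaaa
*Ccl12*: accccagtcacgTGCTGTtataatgttgtt
*Ccl4*: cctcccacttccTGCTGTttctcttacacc
*Ccl5*: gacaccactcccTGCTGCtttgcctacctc
*Ccl6*: acttcttcagacTGCTGCttctcttatgcc
*Ccl9*: gactcttcagatTGCTGCctgtcctataac
*Ccl22*: gaagacagtatcTGCTGCcaggactacatc
*Ccl24*: atcccctcatctTGCTGCacgtcctttatt

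Of the 9, the pair was written TGCTGC in 7 and TGCTGT in 2, *Ccl4* and *Ccl12*. In *Ccl24* there were 2 adjacent pairs, and the later one is shown. Aligned over their coding sequences, the 45 pairs of genes had a median identity of 52.2%, from 43.4% to 69.8%. The most alike were *Ccl3* and *Ccl4*, at 69.8%, followed by *Ccl6* and *Ccl9*, at 66.7%. The longest run of identical bases between the transcripts of any 2 genes was 25, between *Ccl6* and *Ccl9*.

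Of the 10 genes, 8 lie on chromosome 11 in 2 groups. The first group, 67.8 kb long, holds *Ccl2* (82035571–82037453), *Ccl7* (82045712–82047525) and *Ccl12* (82101845–82103400), all on the plus strand. The second, 139 kb long, holds *Ccl5* (83525778–83530518), *Ccl9* (83572919–83578636), *Ccl6* (83587882–83593087) and *Ccl3* (83647844–83649355) on the minus strand and *Ccl4* (83662584–83664683) on the plus strand. *Ccl22* lies on chromosome 8 (94745590–94751699, plus) and *Ccl24* on chromosome 5 (135569937–135573049, minus). There are 2 annotated genes that overlap members on the opposite strand. *Gm17268*, over *Ccl2*, had 0 counts in every library. *E230016K23Rik*, over *Ccl6*, had 22, 36 and 10 counts in f/f BMDMs and 17, 25 and 104 in MKO BMDMs, and none in liver; whether the counting used strand is not stated, so its reads and those of *Ccl6* may be mixed.

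In BMDMs the first comparison asks which chemokine genes differ between genotypes under TSH. Of the ligands of CCR2, *Ccl2* and *Ccl12* were lower in MKO cells by the thresholds of the study, as were *Ccl3*, *Ccl4* and *Ccl5*. In the edgeR fit of all 6 libraries, *Ccl6*, *Ccl7*, *Ccl9*, *Ccl22* and *Ccl24* did not pass them in either direction. *Ccl7* did pass them with DESeq2 (log2 fold change −2.44, unadjusted p = 0.00778) and with a replicate block in edgeR. Of the 10 genes, 5 passed the thresholds used in the study (unadjusted p under 0.05 and at least 2-fold), all of them lower in MKO BMDMs: *Ccl2*, *Ccl3*, *Ccl4*, *Ccl5* and *Ccl12*. Of the 15372 genes tested, 5.52% were lower and 8.82% passed in either direction by that rule. With edgeR's quasi-likelihood test, 0 of 10 had an adjusted p under 0.05, a level that 0% of all tested genes reached, and with DESeq2 the count was 4 (*Ccl3*, *Ccl4*, *Ccl5* and *Ccl12*), where 4.56% of all genes were called lower. The median log2 fold change of the 10 genes was −2.19 (−1.0 without f/f replicate 3), beside 0.01 over all genes tested.

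Among the ligands of CCR2, *Ccl2*, the main monocyte chemoattractant, was at 191, 76.2 and 585 CPM in f/f BMDMs and at 61.5, 39.6 and 115 CPM in MKO BMDMs. Values are in the order of replicates 1 to 3. The groups overlapped, since f/f replicate 2 lay below MKO replicate 3. The group means were 284 ± 267 and 72.1 ± 38.9 CPM (SD, n = 3), and the log2 fold change was −1.98 (edgeR adjusted p = 0.267, SE 0.78). Without f/f replicate 3 the value for *Ccl2* was −0.90, no longer past the study's thresholds.

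*Ccl7*, which recruits monocytes alongside *Ccl2*, was at 83.5, 23.1 and 441 CPM in f/f BMDMs and at 30.9, 18.2 and 54.0 CPM in MKO BMDMs. The order of the 6 libraries was close to that of *Ccl2*, with f/f replicate 3 highest and f/f replicate 2 within the MKO range. Its log2 fold change was −2.41 (edgeR adjusted p = 0.291, SE 1.05), and it was −0.65 without f/f replicate 3. With all libraries the unadjusted edgeR p was 0.0591, so *Ccl7* missed the study's thresholds on its p-value.

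*Ccl12*, a rodent CCR2 ligand in the same group as *Ccl2* and *Ccl7* on the chromosome, was far less abundant, at 9.77, 0.550 and 13.9 CPM in f/f BMDMs and 0.809, 0.907 and 1.90 CPM in MKO BMDMs. Here f/f replicates 1 and 3 lay above every MKO library, and f/f replicate 2 lay below all 3. The log2 fold change was −2.73 (edgeR adjusted p = 0.261, SE 1.05). Without f/f replicate 3 it was −2.10, no longer past the study's thresholds.

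Among *Ccl3*, *Ccl4* and *Ccl5*, the typical products of activated macrophages, *Ccl3* had the largest value of the family. It was at 327, 85.5 and 3833 CPM in f/f BMDMs and at 48.9, 38.0 and 108 CPM in MKO BMDMs. A single library, f/f replicate 3, held most of the f/f mean of 1415 ± 2097 CPM (SD, n = 3). The log2 fold change was −4.44 (edgeR adjusted p = 0.236, SE 1.45) and −1.68 without that library, where it missed the study's thresholds.

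*Ccl4*, the gene beside *Ccl3* and the closest to it in sequence, was at 144, 16.9 and 1465 CPM in f/f BMDMs and at 24.7, 20.4 and 41.9 CPM in MKO BMDMs. On the CPM scale the f/f libraries spanned a wider range than those of any other member except *Ccl3*, and f/f replicate 2 lay below the MKO libraries. Between genotypes the log2 fold change was −4.22 (edgeR adjusted p = 0.252, SE 1.50), and it was −1.49 without f/f replicate 3, where it missed the study's thresholds.

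*Ccl5*, which attracts T cells, monocytes and eosinophils, was the member whose groups did not overlap. It was at 277, 164 and 1464 CPM in f/f BMDMs and at 32.0, 45.4 and 74.8 CPM in MKO BMDMs. The lowest f/f library was thus above the highest MKO library, as it was in 14% of all genes tested. Its fitted log2 fold change was −3.65 (edgeR adjusted p = 0.218, SE 0.92). An exact two-sided permutation test on its CPM gave p = 0.10, the smallest that 3 libraries against 3 allow. Without f/f replicate 3 its log2 fold change was −2.13, and *Ccl5* passed the study's thresholds with any 1 of the 6 libraries left out.

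**Figure D1:**
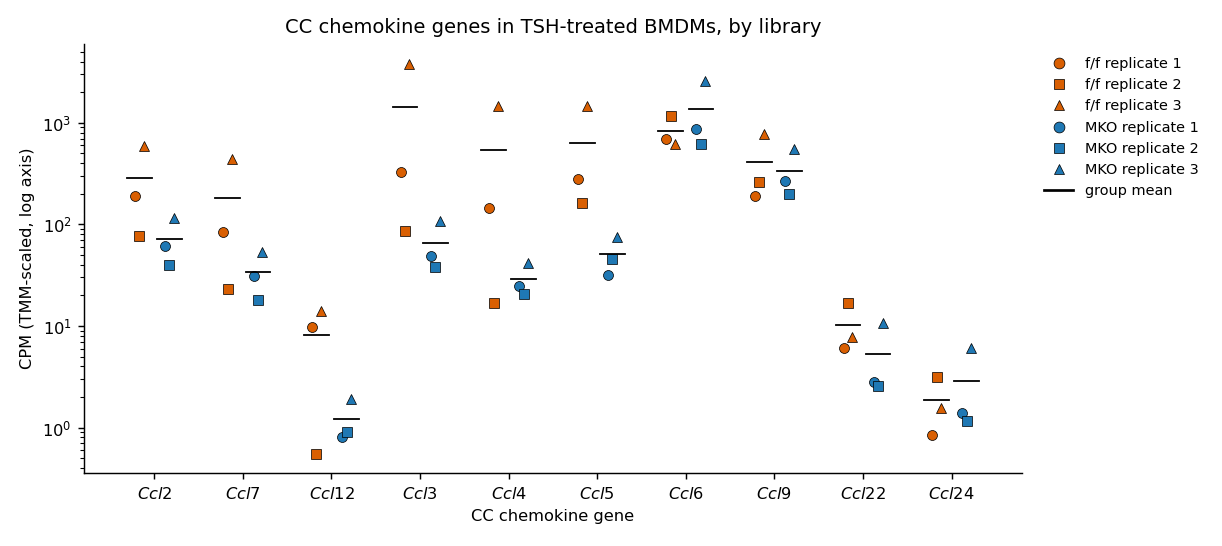
CPM (log axis) of the 10 CC chemokine genes in each BMDM library, with f/f in orange and MKO in blue, a symbol per replicate and a line at the group mean. For *Ccl2*, *Ccl7*, *Ccl12*, *Ccl3* and *Ccl4* the f/f libraries spread widely, with replicate 3 at the top and replicate 2 near or within the MKO values, whereas for *Ccl5* all 3 f/f libraries lie above the MKO libraries.

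The 4 remaining genes had another order of libraries. *Ccl6*, a constitutive CCR1 ligand of myeloid cells, was at 695, 1165 and 620 CPM in f/f BMDMs and at 878, 614 and 2568 CPM in MKO BMDMs. The highest value was that of MKO replicate 3, and f/f replicate 3, the library with the most *Ccl3*, had little more *Ccl6* than the lowest library. MKO cells differed by a log2 fold change of 0.71 (edgeR adjusted p = 0.523, SE 0.58) and −0.15 without MKO replicate 3.

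*Ccl9*, the neighbour of *Ccl6* and also a ligand of CCR1, was at 192, 263 and 781 CPM in f/f BMDMs and at 264, 197 and 549 CPM in MKO BMDMs. Replicate 3 was the highest library in both groups, and the 3 MKO values lay within the f/f range. The log2 fold change was −0.29 (edgeR adjusted p = 0.818, SE 0.63), and it was 0.56 without f/f replicate 3 and 0.00303 with library totals as the only scaling.

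*Ccl22*, the ligand of CCR4, was at 6.10, 16.8 and 7.87 CPM in f/f BMDMs and at 2.82, 2.59 and 10.6 CPM in MKO BMDMs. Here the highest f/f library was replicate 2, which was low for most other members. The log2 fold change was −0.94 (edgeR adjusted p = 0.467, SE 0.67), with a range from −1.92 to −0.39 when 1 library was left out.

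*Ccl24*, an eosinophil attractant, was the least abundant member in f/f BMDMs, at 0.854, 3.11 and 1.57 CPM in f/f BMDMs and 1.38, 1.17 and 6.12 CPM in MKO BMDMs. Its highest libraries, MKO replicate 3 and f/f replicate 2, were also the highest for *Ccl6*. With all libraries the log2 fold change was 0.64 (edgeR adjusted p = 0.672, SE 0.78) and −0.53 without MKO replicate 3.

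The count of members past the study's thresholds depended on single libraries. It was 1 (*Ccl5*) without f/f replicate 3, MKO replicate 1 or MKO replicate 2, where 2.98%, 3.33% and 3.57% of all genes were called lower. It was 3 (*Ccl3*, *Ccl4* and *Ccl5*) without f/f replicate 1 (background 5.95%), 4 (*Ccl2*, *Ccl3*, *Ccl5* and *Ccl22*) without MKO replicate 3 (5.11%) and 6 (the 5 and *Ccl7*) without f/f replicate 2 (7.6%). *Ccl5* passed in all 6 of these fits. At an adjusted p under 0.05 edgeR called 0 members in each of them.

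**Figure D2:**
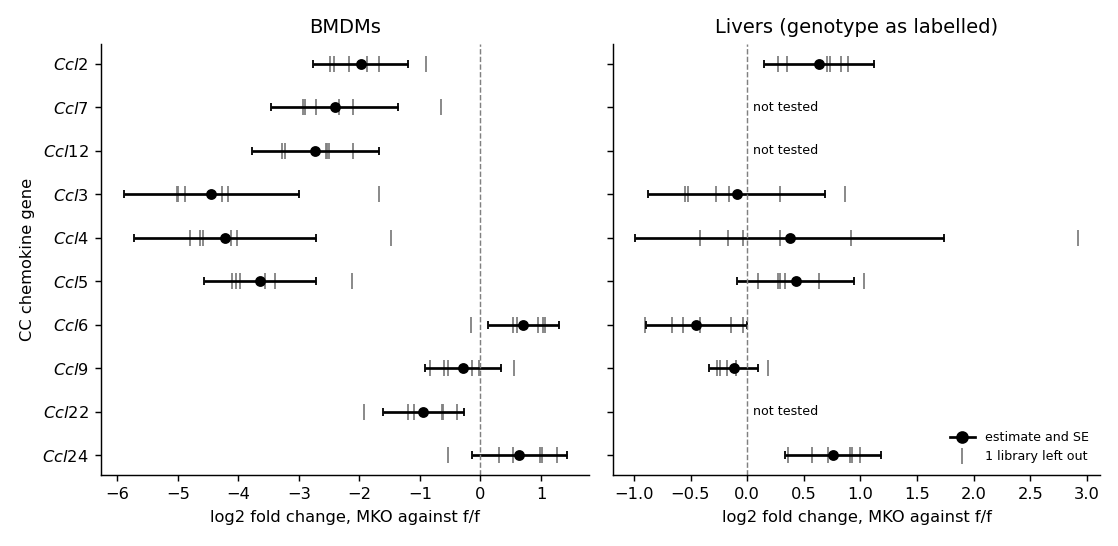
The log2 fold change of each CC chemokine gene (MKO against f/f) in BMDMs and in livers, with bars of 1 SE and grey ticks for the fits with 1 library left out; the x axes differ between the panels. In BMDMs the tick nearest to 0 for *Ccl2*, *Ccl7*, *Ccl3*, *Ccl4* and *Ccl5* is the fit without f/f replicate 3, and in livers most of the bars cross 0.

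Levels were set side by side between genes after dividing CPM (scaled over the 12 libraries) by the kilobases of exon of each gene. In f/f BMDMs the mean level per kilobase followed the order *Ccl3* (1361 ± 2017 CPM per kb, SD, n = 3), *Ccl4* (605 ± 895), *Ccl5* (487 ± 553), *Ccl6* (337 ± 117), *Ccl2* (184 ± 173), *Ccl7* (168 ± 208), *Ccl9* (99.4 ± 78), *Ccl12* (11.1 ± 9.38), *Ccl22* (3.22 ± 1.76) and *Ccl24* (1.04 ± 0.642). Of the neighbours in this order, the ranges over libraries were apart for *Ccl9* and *Ccl12* and for *Ccl22* and *Ccl24*, and the other neighbours overlapped.

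In MKO BMDMs the order was led by *Ccl6* (559 ± 443 CPM per kb) and *Ccl9* (82.0 ± 46.2), and *Ccl3* (62.8 ± 37.0), *Ccl2* (46.9 ± 25.8), *Ccl5* (39.1 ± 17.2), *Ccl4* (32.5 ± 13.1) and *Ccl7* (31.8 ± 17.1) came after them. *Ccl22*, *Ccl12* and *Ccl24* were near 1.7 CPM per kb, at 1.70 ± 1.47, 1.66 ± 0.852 and 1.66 ± 1.62. The ranges of *Ccl6* and *Ccl9*, and of *Ccl7* and *Ccl22*, were apart.

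The make-up of the family differed between f/f libraries more than between MKO libraries. *Ccl6* made up 23.1%, 56.4% and 3.31% of the summed level per kilobase of the 10 genes in f/f BMDMs and 60.6%, 57.4% and 69.0% in MKO BMDMs. *Ccl3* made up 25.5%, 9.70% and 47.9% in f/f BMDMs and 7.91%, 8.33% and 6.80% in MKO BMDMs. In its make-up f/f replicate 2 was nearer to the MKO libraries than to f/f replicate 3. *Ccl5* held a narrow share in f/f BMDMs, of 17.2%, 14.9% and 14.6%, and 4.12%, 7.95% and 3.76% in MKO BMDMs, without overlap. These shares are given as a description and were not tested.

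**Figure D3:**
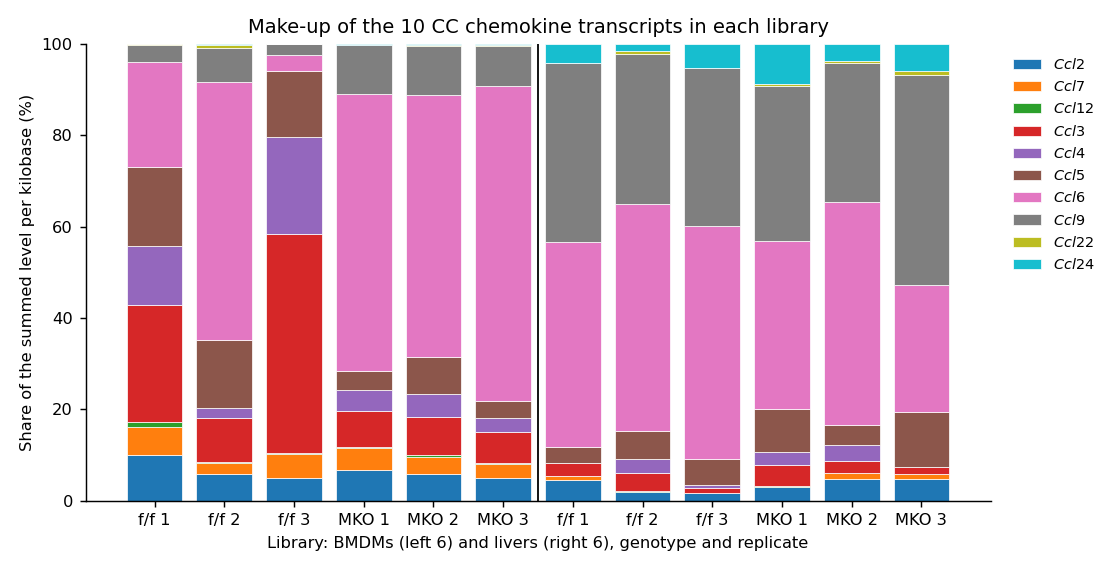
Share of each gene (%) in the summed level per kilobase of the 10 CC chemokine transcripts, as a stacked bar for each of the 12 libraries, BMDMs on the left and livers on the right. *Ccl3*, *Ccl4* and *Ccl5* fill most of the bar of f/f BMDM replicate 3, *Ccl6* fills over 57% of each MKO BMDM bar, and *Ccl6* and *Ccl9* together fill most of each liver bar.

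The libraries also differed in markers of other cells. The neutrophil markers (8 genes) summed to 18.2–365 CPM in f/f BMDMs, with the highest sum in replicate 2, and to 18.1–114 CPM in MKO BMDMs. The T and NK cell markers (8 genes) summed to 12.2–22.4 and 5.79–28.1 CPM, and the monocyte markers (4 genes) to 2537–5018 and 2692–3837 CPM. By the study's thresholds 2 of the 4 monocyte markers were lower in MKO BMDMs, *Ly6c2* (log2 fold change −2.69, SE 0.70) and *Plac8* (−1.35, SE 0.23). For both the groups did not overlap, and 14% of all genes were lower in MKO without overlap. By the study's thresholds 5.52% of all genes were lower and 3.3% higher. Of the 5 neutrophil markers tested, *Camp* (−3.23, SE 0.48) and *S100a8* (−2.37, SE 0.81) were lower and *Retnlg* (3.80, SE 0.63) was higher by the same rule. Of the 4 Kupffer cell markers tested, *Marco* (−2.17, SE 0.49) and *Timd4* (−2.70, SE 0.71) were lower by that rule. The other 2 Kupffer cell markers had a log2 fold change above 0 and did not pass. Of the 8 macrophage markers *Cd14* (−2.46, SE 0.88) was lower. Without f/f replicate 3, *S100a8* and *Cd14* no longer passed. DESeq2 called the same 2 monocyte, 3 neutrophil and 2 Kupffer cell markers at its adjusted p, with *Cd14* and *Lyz2* (0.95, SE 0.25) of the macrophage markers, and edgeR called 0 in each list. Of all genes, DESeq2 called 4.56% lower. These marker genes were named after their values were seen. The part of such cells in the chemokine values was not tested. In bulk RNA, fewer cells of a type and less RNA per cell cannot be told apart.

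The receptors of these ligands were also read from BMDMs, as a list of 11 genes of which 8 passed the filter on low counts. By the study's thresholds 2 were higher and 2 lower in MKO BMDMs, with 3.3% of all genes called higher and 5.52% lower, and the median of the list was −0.47 beside 0.01 for all genes. At an adjusted p under 0.05 edgeR called 0, DESeq2 called 4, and 4 had an unadjusted p under 0.05. *Ccr2*, the receptor of CCL2, CCL7 and CCL12, was at 21.3, 14.7 and 11.7 CPM in f/f BMDMs and at 38.6, 46.2 and 65.0 CPM in MKO BMDMs. Every MKO library lay above every f/f library, as in 14.8% of all genes, and the log2 fold change was 1.65 (edgeR adjusted p = 0.218, SE 0.29).

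*Ccr3*, the receptor of CCL24, was low in all libraries, at 0.226, 0.183 and 0.154 CPM in f/f BMDMs and 1.67, 1.55 and 1.57 CPM in MKO BMDMs. Its groups did not overlap, with a log2 fold change of 3.05 (edgeR adjusted p = 0.218, SE 0.34). *Ccr7*, which guides cells to lymph nodes, was at 6.03, 10.9 and 13.4 against 2.87, 2.37 and 3.83 CPM, a log2 fold change of −1.74 (edgeR adjusted p = 0.218, SE 0.36). *Ccrl2*, a receptor-like protein that binds chemerin, was highest in f/f replicate 3, as *Ccl3* was. It was at 386, 87.9 and 1790 CPM in f/f BMDMs and at 41.2, 44.6 and 88.3 CPM in MKO BMDMs, a log2 fold change of −3.70 (edgeR adjusted p = 0.223, SE 1.09) and −2.04 without f/f replicate 3.

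*Ccr1*, which binds CCL3, CCL5 and others, passed neither threshold. It was at 41.4–242 and 41–188 CPM, with a log2 fold change of −0.19 (SE 0.86).

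NF-κB binds the promoters of many chemokine genes, and its inhibitors are themselves among its targets. Of 12 genes for its subunits and inhibitors, all tested, 12 had a log2 fold change below 0 in MKO BMDMs and 10 were lower by the study's thresholds, where 5.52% of all genes were; the median was −1.71 (−0.94 without f/f replicate 3). With edgeR 0 had an adjusted p under 0.05, 10 had an unadjusted p under 0.05, and DESeq2 called 8 at its adjusted p. *Nfkbiz*, an inducible nuclear inhibitor protein that also activates some targets, was at 241, 106 and 1122 CPM in f/f BMDMs and at 45.0, 39.6 and 78.6 CPM in MKO BMDMs. Its groups did not overlap, and 14% of all genes were lower in MKO without overlap. The log2 fold change of *Nfkbiz* was −3.17 (edgeR adjusted p = 0.222, SE 0.90).

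*Tnfaip3*, which encodes the feedback inhibitor A20, was at 572, 179 and 2102 against 113, 111 and 146 CPM, a log2 fold change of −2.95 (edgeR adjusted p = 0.222, SE 0.86). Among the subunits, *Nfkb1* and *Nfkb2* had log2 fold changes of −1.82 (SE 0.64) and −2.09 (SE 0.63), *Rela* and *Relb* of −1.17 (SE 0.38) and −1.44 (SE 0.45). The inhibitors *Nfkbia*, *Nfkbib*, *Nfkbie* and *Bcl3* lay between −1.97 and −1.24. *Rel*, at −0.94, and *Nfkbid*, at −0.81, missed the thresholds. In this list too f/f replicate 3 was the highest library for each of the 12 genes.

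**Figure D4:**
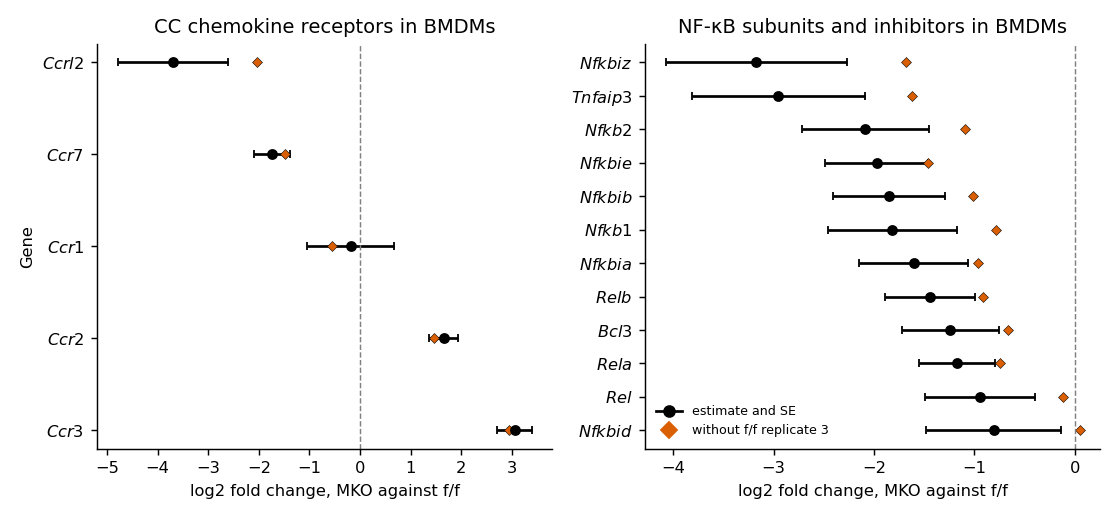
The log2 fold changes (MKO against f/f BMDMs) of the 5 CC chemokine receptor genes described and of the 12 genes of NF-κB subunits and inhibitors, with bars of 1 SE and diamonds for the fit without f/f replicate 3. *Ccr3* and *Ccr2* lie above 0 with and without that library, and the diamonds of the NF-κB genes lie nearer to 0 than the circles.

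Promoter sequence was at hand in RefSeq (GRCm38.p6) for 5 of the 10 genes: *Ccl3*, *Ccl6*, *Ccl9*, *Ccl12* and *Ccl22*. The windows of *Ccl3* and *Ccl12*, the 2 of them whose genes passed the study's thresholds in BMDMs, are shown as the 150 bases before the annotated start, 5′ to 3′ on the strand of the gene. Capitals mark a TATA box, TATAAA.

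*Ccl3* (chr11:83649379-83649528, minus): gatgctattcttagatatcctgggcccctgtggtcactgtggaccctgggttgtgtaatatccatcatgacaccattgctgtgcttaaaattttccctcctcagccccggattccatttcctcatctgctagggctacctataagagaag
*Ccl12* (chr11:82101695-82101844, plus): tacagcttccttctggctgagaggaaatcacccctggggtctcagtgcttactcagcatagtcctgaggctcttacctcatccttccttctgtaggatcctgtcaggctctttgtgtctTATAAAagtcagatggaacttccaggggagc

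Motifs were searched on both strands of the whole window, from 250 bases before to 50 after the start. TATAAA was found in 2 of the 5 windows (*Ccl9* and *Ccl12*) and in 13.6% of all 32851 promoters. In *Ccl12* it began 31 bases before the start. The AP-1 letters TGANTCA, where N is any base, were in 1 of the 5 (*Ccl9*) and in 7.81% of all promoters. These are matches of letters in a short window and say nothing about binding elsewhere.

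In livers the same comparison asks whether the chemokine genes of HFD-fed mice differ between genotypes. The family was scarce there, and no member passed a test: of 7 members that passed the filter on low counts, 0 passed the study's thresholds, which 1.55% of 15062 genes passed. At an adjusted p under 0.05 edgeR called 0 (0% of all genes), DESeq2 called 0 of the 3 for which it gave an adjusted p (1.79% of all genes), and 0 had an unadjusted p under 0.05. Log2 fold changes were above 0 for 4 and below 0 for 3 of the 7, with a median of 0.38 beside −0.01 for all genes. The median fell below 0 without f/f replicate 1 (−0.17), f/f replicate 3 (−0.04) or MKO replicate 2 (−0.16), and was −0.02 with a covariate for the letter (A or B) of the sample ID. Levels in f/f and MKO livers, as labelled, overlapped for all 10 members.

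*Ccl9* and *Ccl6* were the most abundant members in liver. *Ccl9* was at 16.5, 27.6 and 15.9 CPM in f/f livers and at 17.8, 19.6 and 18 CPM in livers labelled MKO. The 3 MKO values lay within the f/f range, and the log2 fold change was −0.12 (edgeR adjusted p = 0.901, SE 0.22). *Ccl6* was at 11.1, 24.7 and 13.8 CPM against 11.5, 18.4 and 6.37 CPM, a log2 fold change of −0.45 (edgeR adjusted p = 0.775, SE 0.44).

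*Ccl5* was at 0.474, 1.63 and 0.796 CPM in f/f livers and at 1.56, 0.881 and 1.49 CPM in livers labelled MKO, from 14–59 counts a library. In the fit of 6 libraries the log2 fold change was 0.43 (edgeR adjusted p = 0.821, SE 0.51), on the other side of 0 from that in BMDMs. *Ccl24* was at 0.744, 0.579 and 1.03 against 1.96, 1.02 and 0.991 CPM, a log2 fold change of 0.76 (edgeR adjusted p = 0.579, SE 0.43). This was the member nearest to a threshold in liver, and f/f replicate 3 lay between the MKO libraries.

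*Ccl2* had 21, 21 and 9 counts in f/f livers and 21, 49 and 20 in livers labelled MKO, a log2 fold change of 0.63 (edgeR adjusted p = 0.699, SE 0.48). *Ccl3* had 9, 30 and 4 against 22, 18 and 4 counts, a log2 fold change of −0.09 (SE 0.78). *Ccl4* had 0, 20 and 2 against 11, 21 and 0 counts, a log2 fold change of 0.38 (SE 1.36). For *Ccl3* and *Ccl4* f/f replicate 2 was the highest f/f liver, and without it the log2 fold changes were 0.86 and 2.92, neither past a threshold.

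The other 3 members did not pass the filter on low counts in liver. *Ccl7* had 3, 0 and 0 counts in f/f livers and 0, 8 and 3 in livers labelled MKO. *Ccl12* had 0, 2 and 0 against 1, 0 and 0 counts. *Ccl22* had 0, 16 and 0 against 7, 7 and 6 counts. A count of 0 in these libraries allows up to 3 counts, or 0.0714–0.106 CPM, a limit that covers counting error only, so a difference in these genes was not detectable at this depth.

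**Figure D5:**
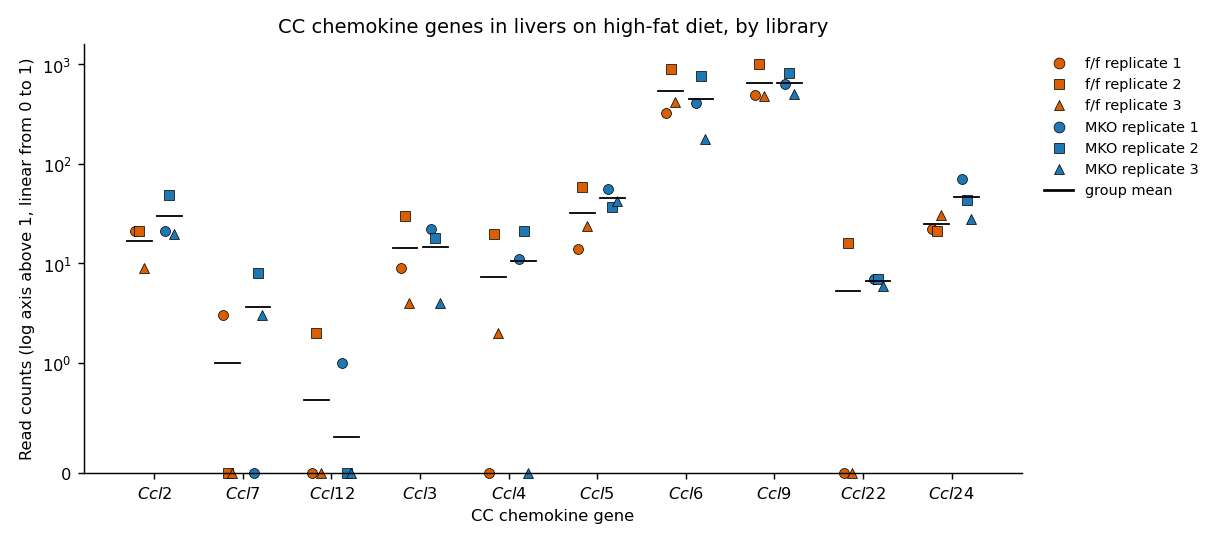
Read counts of the 10 CC chemokine genes in each liver library (log axis above 1, linear from 0 to 1), with f/f in orange and livers labelled MKO in blue, a symbol per replicate and a line at the group mean. *Ccl6* and *Ccl9* lie at 180–1001 counts, the other genes at 70 or fewer, and the groups overlap for each gene.

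The macrophage markers summed to 135–331 CPM in f/f livers and to 133.1–305 CPM in livers labelled MKO, and the Kupffer cell markers (5 genes) to 223–590 and 195–503 CPM. The neutrophil markers summed to 86.0, 30.6 and 8.43 CPM in f/f livers (replicates 1 to 3) and to 9.30–16.0 CPM in livers labelled MKO. Of 7 tested, 3 were lower by the study's thresholds, as were 0.856% of all genes tested in liver. The groups overlapped for all 7. At an adjusted p under 0.05 edgeR called 0 of them, and DESeq2 called 0 of the 5 for which it gave an adjusted p. In livers labelled MKO 7 of 8 macrophage markers and 4 of 4 monocyte markers had a log2 fold change below 0, and 0 passed the study's thresholds. The monocyte markers summed to 2185–3592 CPM in f/f livers and 1491–2234 CPM in livers labelled MKO, far above the macrophage markers. Their reads in whole liver need not come from monocytes. The T and NK cell markers summed to 1.69–5.40 and 2.71–3.93 CPM. The part of these cells in the liver values was not tested.

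Of the receptors, 3 were tested in liver. *Ccr2* was at 2.91, 2.78 and 1.16 CPM in f/f livers and at 0.754, 0.738 and 1.13 CPM in livers labelled MKO. Its groups did not overlap, as in 7.74% of all genes tested in liver lower in MKO, f/f replicate 3 lay just above MKO replicate 3, and it passed the study's thresholds with a log2 fold change of −1.39 (edgeR adjusted p = 0.368, SE 0.43). By the same thresholds 0.856% of all genes were lower in liver. DESeq2 called 0 of the 3 receptors at its adjusted p. *Ccrl2* had a log2 fold change of 0.26 (SE 0.74). The atypical receptors *Ackr1*, *Ackr2* and *Ackr4*, which take up chemokines without signalling through G proteins, were tested in liver and not in BMDMs, and 0 of 3 passed a threshold (0 with DESeq2). Of the 12 NF-κB genes, 0 passed a threshold in liver (0 with DESeq2 and 0 at an unadjusted p under 0.05), with a median log2 fold change of −0.16.

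The other CC chemokine ligands, a list of 11, served as a comparison within the family. In BMDMs 4 of them were tested (*Ccl1*, *Ccl8*, *Ccl25* and *Ccl27a*) and 0 passed a threshold with edgeR or DESeq2 or had an unadjusted p under 0.05, with a median log2 fold change of 0.13. *Ccl8*, a chemokine gene of the same group on chromosome 11, was at 5.30, 0.435 and 6.22 CPM in f/f BMDMs and at 4.28, 4.03 and 8.70 CPM in MKO BMDMs. It shared with *Ccl12* its lowest value in f/f replicate 2, but its log2 fold change was 0.52 (edgeR adjusted p = 0.761, SE 0.85). In liver *Ccl19*, *Ccl25* and *Ccl27a* were tested, and again 0 passed a threshold or had an unadjusted p under 0.05.

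Between the sample types, within f/f, the question is where the family is expressed. Macrophages had more of every member but *Ccl24*: 9 of 10 genes were lower in f/f livers than in f/f BMDMs at an edgeR adjusted p under 0.05, as were 32.7% of the 17246 genes tested in all 12 libraries. The count was 9 with each library left out in turn and under each other scaling tried. Sample type and treatment differ together here, since the BMDMs had received TSH in culture and the mice had received a diet and insulin, so the source of the difference cannot be told apart.

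On the scale of all 12 libraries, *Ccl3* was at 242, 62.0 and 2823 CPM in f/f BMDMs and at 0.407, 1.13 and 0.180 CPM in f/f livers, a log2 difference of −10.78 (edgeR adjusted p = 0.000176, SE 1.65). *Ccl4* differed by −10.36 (SE 1.86), *Ccl5* by −8.45 (SE 1.00), *Ccl2* by −8.18 (SE 0.90) and *Ccl22* by −5.11 (SE 1.08) on the same log2 scale. Single libraries moved these values: without f/f BMDM replicate 3 the difference was −8.01 for *Ccl3* and −7.62 for *Ccl4*, and without f/f liver replicate 2, which held all 16 of the counts of *Ccl22* in f/f livers, it was −13.01 for *Ccl4* and −11.20 for *Ccl22*. *Ccl7* and *Ccl12* had only 3 and 2 counts in the 3 f/f livers together. The ratio of their summed levels in f/f BMDMs to those in f/f livers was 2499 (95% exact interval 855–12119, counting error only) for *Ccl7* and 184 (50.9–1517) for *Ccl12*.

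For the CCR1 ligands made by resting myeloid cells the values were nearer to 0, a contrast between genes that was not tested. *Ccl6* was at 513, 846 and 457 CPM in f/f BMDMs and at 14.8, 33.6 and 18.8 CPM in f/f livers, a log2 difference of −4.75 (edgeR adjusted p = 9.06e-05, SE 0.66). *Ccl9* was at 141, 191 and 575 against 22.1, 37.6 and 21.6 CPM, a log2 difference of −3.48 (edgeR adjusted p = 0.00029, SE 0.57). For both, every BMDM library lay above every liver. *Ccl24* was at 0.630, 2.26 and 1.16 against 0.995, 0.789 and 1.40 CPM, with a log2 difference of −0.35 (edgeR adjusted p = 0.665, SE 0.69), and without f/f BMDM replicate 2 it was 0.25. The macrophage markers were all (8 of 8) lower in liver by the same test.

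Per kilobase, the order in f/f livers was led by *Ccl6* (12.5 ± 5.53 CPM per kb, SD, n = 3) and *Ccl9* (8.90 ± 2.99), whose ranges overlapped. They were followed by *Ccl5* (1.37 ± 0.851), *Ccl24* (0.819 ± 0.239), *Ccl3* (0.746 ± 0.646), *Ccl2* (0.628 ± 0.245) and *Ccl4* (0.425 ± 0.622). The ranges of *Ccl9* and *Ccl5* were apart, and those of the genes after *Ccl5* overlapped with their neighbours. In livers labelled MKO, *Ccl6* (9.25 ± 4.78 CPM per kb) and *Ccl9* (8.27 ± 0.565) again led. *Ccl6* and *Ccl9* together thus had most of the family's level in each liver: *Ccl6* made up 27.7–51.0% and *Ccl9* 30.5–46.1% of it over the 6 libraries.

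The last comparison asks whether the genotype effect differs between sample types, by the interaction term of a fit over all 12 libraries (the effect in liver minus that in BMDMs). At an adjusted p under 0.05 edgeR called 0 of 10 members, where 0.0058% of 17246 genes were called, and DESeq2 called 1 (*Ccl5*), where 4.49% were called. By the study's thresholds 3 passed, *Ccl2*, *Ccl3* and *Ccl5*, where 8.03% of all genes did. For *Ccl5* the difference was 4.05 on the log2 scale (edgeR adjusted p = 0.195, SE 1.12). Without f/f BMDM replicate 2 it was 4.50 with an adjusted p of 0.0492, in a fit that called 1.93% of all genes. For *Ccl2* it was 2.63 (edgeR adjusted p = 0.300, SE 1.05) and for *Ccl3* 4.35 (edgeR adjusted p = 0.320, SE 1.84). Without f/f BMDM replicate 3 the differences were 2.51 for *Ccl5*, 1.53 for *Ccl2* and 1.57 for *Ccl3*, and of the members *Ccl5* alone passed the study's thresholds. *Ccl5* was also the single member past them without MKO BMDM replicate 1 or 2, f/f liver replicate 3 or replicate 2 of the livers labelled MKO. These values carry the same reservation on the liver labels as the liver comparison itself.

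For 5 of the members, *Ccl2*, *Ccl4*, *Ccl5*, *Ccl22* and *Ccl24*, the genes whose log2 CPM followed them most closely over the 6 BMDM libraries were sought among 13026 genes with a mean of at least 1 CPM. These correlations describe 6 libraries that share depth and culture, with f/f replicate 3 at one end for *Ccl2*, *Ccl4* and *Ccl5*. They are the highest of 13026 genes searched, so values near 1 can come from the search alone, and none was tested. *Ccl2* was nearest to *Ngdn*, *Alpk1* and *Atp2c1* (Pearson r = 0.999, 0.999 and 0.997), *Ccl4* to *Zfp263*, *Rbm7* and *Gna13* (r = 0.9997, 0.998 and 0.998), and *Ccl5* to *Zbtb11*, *Ptgs2os2* and *Cd274* (r = 0.999, 0.999 and 0.997). *Ccl22* was nearest to *Nectin1*, *Gimap8* and *Kpna2* (r = 0.995, 0.994 and 0.993) and *Ccl24* to *Clk4*, *Il1r2* and *Zswim6* (r = 0.991, 0.989 and 0.989). No gene was named for more than 1 of these 5.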

How the data were processed

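Bulk RNA of 6 BMDM and 6 liver libraries was sequenced strand-specifically on a NovaSeq instrument. The unit is read counts per gene, as deposited by the authors, who trimmed reads with Skewer; FastQC 0.11.2, STAR, StringTie and mm10 stand in the submitters' processing notes, and the counter and its strand setting are not given in the sources used here. The quasi-likelihood test of edgeR 4.0.16 in R 4.3.3, made robust and with TMM scaling after filterByExpr, was run separately in BMDMs and livers, with Benjamini–Hochberg adjustment over all genes tested. The contrast of sample types and the interaction came from 1 fit of 4 groups. An SE is the log2 value divided by the root of its F statistic. The study's model (MARS in DEGseq) was not run, but its thresholds were used as a second rule. DESeq2 1.42.0, other scalings, no filter, a replicate block and leaving out each library were alternatives. CPM are counts over TMM-scaled totals; the depth gives a floor of 3 counts at 0.0687–0.115 CPM in a library. GENCODE M21 held 55154 of the 55335 genes and gave positions and exon lengths; RefSeq gave promoters. Correlations used log2(CPM + 0.5). Figures were drawn with matplotlib 3.10.9.

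The members and lists were chosen with earlier results of these data known. Named genes were the members, and listed genes that passed a rule or were among the 4 most abundant of their list. The methods give 3 mice per group for each sample type, but the labels tie no library to a mouse, so p-values measure the spread between libraries. The calculations were tested on simulated data. The members' proteins were not used here. A receptor gene and a coding window are not reported here.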

Additional observations from a re-analysis of the deposited data

Results flagged for a closer look

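The effect of genotype on *Ccr2*, the receptor of CCL2, CCL7 and CCL12, differed in direction between the sample types: the 3 MKO libraries lay above the 3 f/f libraries in BMDMs and below them in liver. The gene was flagged by this pattern, so the pattern is not separate evidence. Of all genes tested, 14.8% were higher in MKO without overlap in BMDMs and 7.74% lower in liver. The difference between the effects (liver minus BMDMs) was −3.05 on the log2 scale (edgeR adjusted p = 0.120, SE 0.52), which missed 0.05. DESeq2 gave it an adjusted p of 9.5e-06, in a fit that called 4.49% of all genes. In the comparison within liver DESeq2 called 0 of the 3 receptors tested. Of the liver libraries, f/f replicate 3 (1.16 CPM) and MKO replicate 3 (1.13 CPM) lay close together, and the direction in liver rests on the deposited genotype labels.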

How the results depend on the processing

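In BMDMs the number of members past the study's thresholds was 5, stayed within 4–6 under every other setting except the fits without 1 library, and ranged over 1–6 in those; the calls at an adjusted p under 0.05 went from 0 to 4 members with DESeq2. Over all genes, 1223 passed at an adjusted p with DESeq2, 150 with all 12 libraries in 1 fit and 1 with the replicate block, and 0–13 with 1 library left out, where 828–1986 passed the study's thresholds. In liver no member passed under any setting. Over all liver genes, 416 passed the study's thresholds with no filter and 351 in the fit of 12 libraries, 1 passed at an adjusted p with no filter and 269 with DESeq2, and 190–452 and 0–7 passed by the 2 rules with 1 library left out. The 9 members lower in liver than in BMDMs kept that call under every setting. For the interaction, all genes past an adjusted p numbered 3 with upper-quartile scaling, 2 with library totals only, 0 with the replicate block and 774 with DESeq2, and 0–341 with 1 library left out; of the members DESeq2 called 1, and 0–1 passed with 1 library left out.

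Signs changed for values near 0 on the log2 scale. With 1 library left out, the BMDM values were −0.15 to 1.06 for *Ccl6*, −0.83 to 0.56 for *Ccl9* and −0.53 to 1.27 for *Ccl24*, negative without MKO replicate 3 for *Ccl6* and *Ccl24* and positive without f/f replicate 3 for *Ccl9*. The liver values were −0.54 to 0.86 for *Ccl3*, −0.42 to 2.92 for *Ccl4* and −0.27 to 0.18 for *Ccl9*, and the difference of *Ccl24* between sample types was −0.70 to 0.25. In the interaction they were −0.69 to 0.73 for *Ccl9*, −0.55 to 5.05 for *Ccl12* and −0.50 to 1.30 for *Ccl24*. With library totals only, *Ccl9* was at 0.00303 in BMDMs and at −0.11 in the interaction, and in liver *Ccl3* was at 0.00764 with the replicate block and *Ccl4* at −0.13 with a covariate for the letter (A or B) of the sample ID. For these changes the cause was not tested.

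Whether replicate numbers mark pairs was not settled. Deviations of same-numbered libraries correlated at 0.0959, 0.0126 and 0.102 in BMDMs and at −0.0562, 0.217 and −0.0209 in livers. Those of differently numbered libraries spanned −0.191 to 0.153 in BMDMs and −0.291 to 0.281 in livers, so so few values cannot exclude pairs. With the replicate block, 4 members passed the study's thresholds in BMDMs (*Ccl2*, *Ccl3*, *Ccl5* and *Ccl7*) and 0 in liver. Ranks of the members by counts per kilobase instead of CPM were the same in 19 of 40 cases. With 3 libraries a group and a biological coefficient of variation of 0.337 in BMDMs, and with 0–21 counts for *Ccl4* in a liver, small differences could not be seen.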

Other observations

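The markers of 4 other cell types were summed over the same libraries. The B cell markers (4 genes) summed to 0.576–2.36 CPM in f/f BMDMs and to 1.62–4.13 CPM in MKO BMDMs, and all 4 had a log2 fold change above 0, with a median of 1.37 (0.92 without f/f replicate 3) and 0 past the study's thresholds or an adjusted p with edgeR. The granulocyte and mast cell markers (6 genes), which mark cells that carry CCR3, summed to 1.56–7.28 and 4.84–11.3 CPM in f/f and MKO BMDMs. Of 4 tested, 1 was higher by the study's thresholds, as were 3.3% of all genes. *Epx*, the eosinophil peroxidase, was at 0 in all f/f BMDMs. The dendritic cell markers (5 genes), cells that carry CCR7, summed to 4.15–4.37 and 3.04–6.03 CPM in BMDMs, and to 5.11–8.19 and 4.11–5.66 CPM in f/f livers and livers labelled MKO. The endothelial and stellate cell markers (8 genes) summed to 496–1325 and 314–522 CPM in f/f and MKO BMDMs and to 69.9–397 and 182–265 CPM in f/f livers and livers labelled MKO. The sums do not stand for each gene. Between f/f livers and f/f BMDMs, 7 of the 8 were higher in liver and 1 was lower, with a median log2 difference of 8.27.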
